A study of Drosophila melanogaster with 12 samples.

Results

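The insulin and TOR signalling genes described here are 9 Drosophila genes chosen by name: InR, chico, foxo, Tsc1, gig, Tor, S6k, Thor and ImpL2. Values were found for 7 of the 9 by their gene identifiers, out of 13726 genes with values, and InR and S6k were not analysed here because the annotation used pairs their names with identifiers that did not match the files. Another 55 genes of the same pathway were listed by role, 52 of which were matched. The measurements are gene-level RNA-seq of sorted somatic cells of the ovarian germline stem cell niche, in 12 libraries of 6 groups with 2 libraries each.

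In fed animals, insulin-like peptides bind the insulin receptor, and the substrate Chico passes the signal to PI3-kinase and Akt, which holds the transcription factor Foxo in the cytoplasm. Akt and amino acids also relieve the brake that the Tsc1 and Gigas (Tsc2) complex puts on the kinase Tor, which drives protein synthesis in part by phosphorylating S6k and the translational repressor Thor (4E-BP). ImpL2 is a secreted protein that binds insulin-like peptides and antagonises them at a distance. In the Drosophila ovary, insulin signalling supports germline stem cell division and the maintenance of these cells in their niche.

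The TFCs-CpCs are terminal filament cells and cap cells, taken as the brightest GFP-positive cells of ovaries in which bab1-Gal4 drove UASp-tau::mGFP6 (bab1>tau::GFP), from 4w-old and 1w-old females. The ECs are escort cells, sorted by the membrane protein mCD8::GFP, expressed from lexAop under 1 copy of ptc-LexA in a y w background, again from 4w-old and 1w-old females. In the RNAi experiment, ECs of Smu1 RNAi females (ptc-Gal4/UAS-Smu1 RNAi) were set against control ECs with ptc-Gal4 and no RNAi transgene. Both genotypes also carried LexAop-mCD8::GFP, ptc-LexA and tub-Gal80ts, were grown at 18 °C and were kept at 29 °C for 2 weeks as adults. The ptc driver here is an enhancer line, so that the RNAi acts in the cells that this enhancer marks. Cell group, fly genotype, sort and number of sorted cells changed together between TFCs-CpCs and ECs, and cannot be told apart. The ECs of the RNAi experiment differed from the ageing ECs in genotype, adult age, experiment and possibly temperature together, which cannot be told apart either. The paper names 18, 25 and 29 °C for its flies and does not say which applied to the ageing libraries.

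Each library is a pool of sorted cells whose cDNA was amplified by PCR before sequencing. Between 12078227 and 52487930 reads were counted on genes in a library, 37580263 or more in each TFCs-CpCs library and 16888122 or fewer in each EC library. Levels are given in cRPKM, which scales the reads of a gene to its mappable transcript length and to the library's mapped reads. The counts of reads were tested by the quasi-likelihood method of edgeR, and a gene was called at a 2-fold difference (log2 fold change of 1 or more, or of -1 or less) and a Benjamini-Hochberg adjusted p under 0.1 over all genes tested. With 2 libraries in each group, p-values measure the spread between these pools. In bulk RNA, fewer cells of a type and less RNA per cell cannot be told apart.

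The sorted cells were checked against markers of the cell types they could hold. The TFCs-CpCs libraries carried en, a transcription factor of terminal filament and cap cells, at 71.4 and 298 cRPKM in the 4w libraries and 13.9 and 20.3 cRPKM in the 1w ones, against at most 3.19 cRPKM in any EC library. The sum of 16 muscle markers was 2078 and 2270 cRPKM in TFCs-CpCs at 4w and 58342 to 61296 cRPKM at 1w, against 284 to 1562 cRPKM in ECs. The sum of 9 follicle cell and yolk protein genes was 34339 to 67786 cRPKM in TFCs-CpCs at 4w and 3766 to 13647 cRPKM at 1w. In ECs this sum was 10506 to 13027 cRPKM at 4w and 12879 to 15162 cRPKM at 1w. It was 3354 to 6473 cRPKM in Smu1 RNAi ECs and 3035 to 3352 cRPKM in control ECs. The sum of 6 terminal filament and cap cell markers was 504 to 1298 cRPKM in TFCs-CpCs at 4w and 249 to 317 cRPKM at 1w, against 150 to 196 cRPKM in ECs, and that of 6 EC markers was 755 to 2219 and 663 to 700.0 cRPKM, against 2175 to 4242 cRPKM in ECs. Among the EC markers, Wnt6 and tutl went against their label at 4w, and were called higher in TFCs-CpCs than in ECs (log2 fold changes 4.72 ± 0.73 and 4.96 ± 0.68, adjusted p = 0.0283 and 0.0237). The hedgehog ligand hh, listed as a marker of terminal filament and cap cells, went against its label at 1w, with 5.35 and 7.65 cRPKM in TFCs-CpCs and 117.79 and 91.5 cRPKM in ECs. Smu1, the target of the RNAi, was at 4.17 and 5.51 cRPKM in Smu1 RNAi ECs and at 26.4 and 23.6 cRPKM in control ECs, a log2 fold change of -2.34 ± 0.19 (SE; adjusted p = 6.4e-05).

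ImpL2 had the largest difference among the members. It was called higher in TFCs-CpCs at 4w than at 1w and higher in TFCs-CpCs than in ECs at 4w, and its ageing effect differed between the cell groups. No other member was called in any of the 6 comparisons. foxo and chico, both on the insulin side of the pathway, were lower in each 4w library of TFCs-CpCs than in each 1w library, without passing the adjusted threshold. Thor had the highest mean level of the members in every group, and the TOR-side members Tsc1, gig and Tor had the 3 lowest means in every group.

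**Figure D1:**
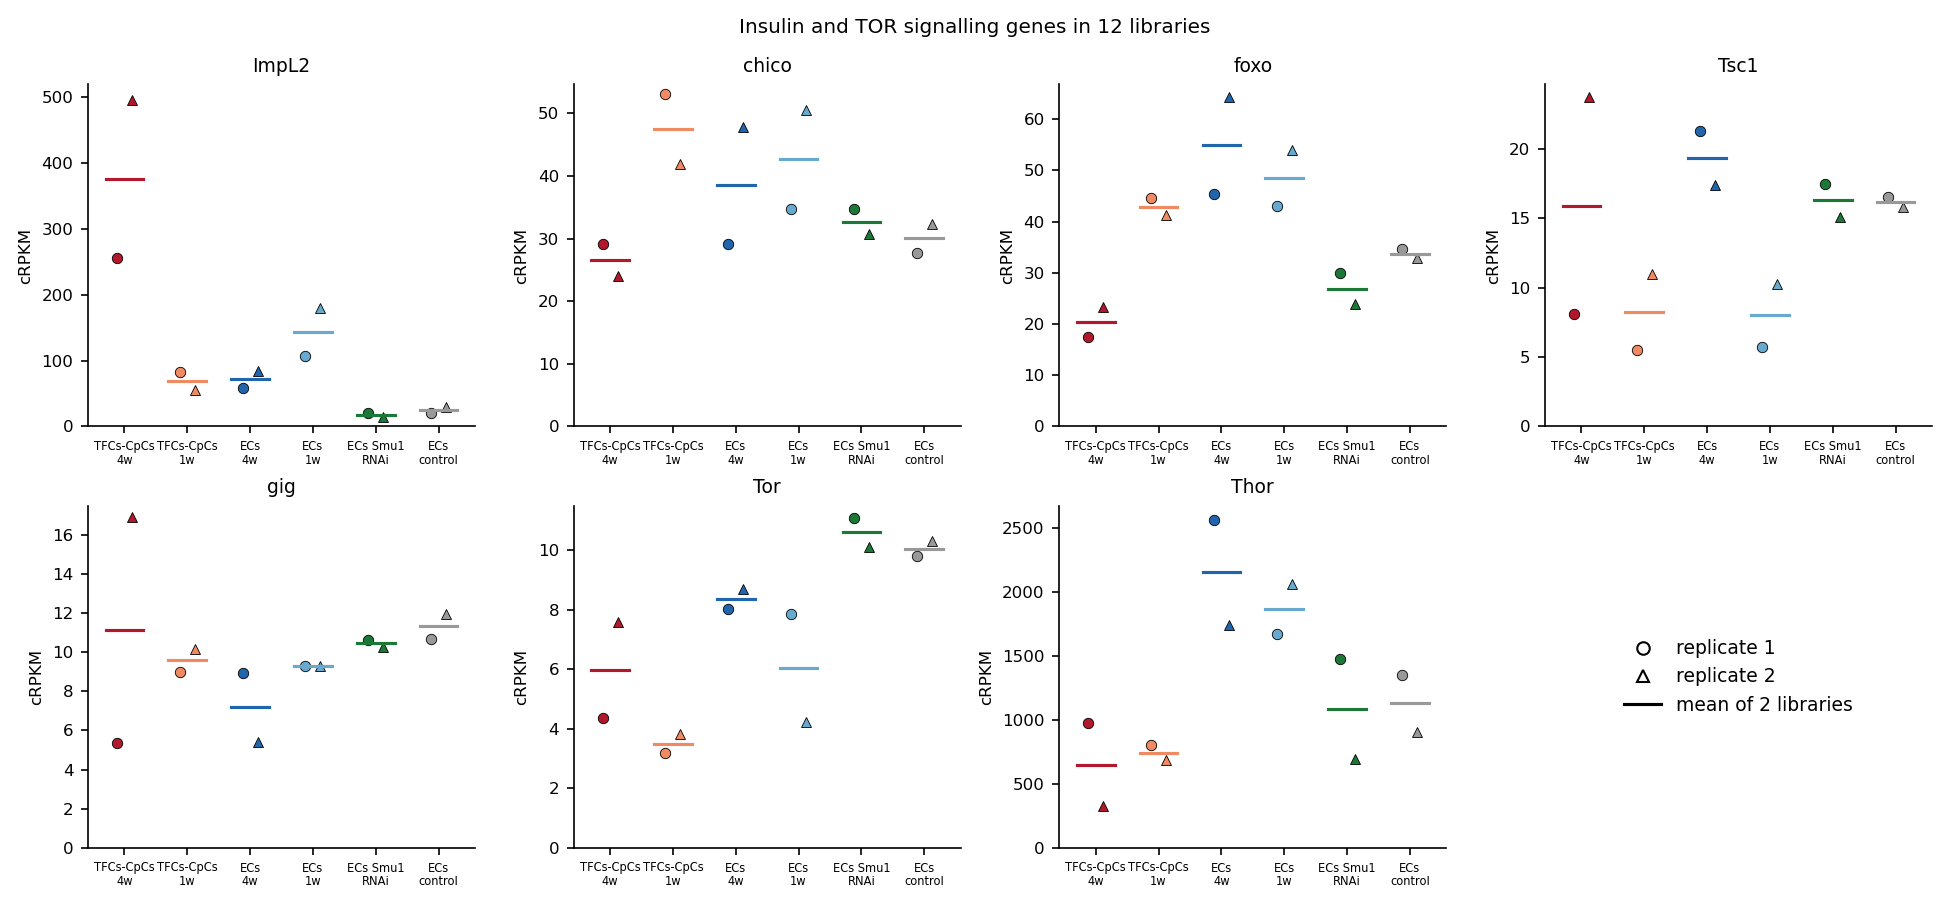
Level of each member (cRPKM, y axis from 0) in the 2 libraries of each of the 6 groups (x axis); circles and triangles are replicates 1 and 2, and lines are group means. ImpL2 in TFCs-CpCs at 4w stands above all other libraries, foxo is lowest there, and Thor is higher in ECs at 4w and 1w than in TFCs-CpCs.

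The gene ImpL2 (FBgn0001257) lies on the minus strand of chromosome 3L, from 4224006 to 4236147 (BDGP6 annotation, dm6 coordinates). In TFCs-CpCs it had 256 and 495 cRPKM at 4w, against 83.3 and 54.5 cRPKM at 1w. The ages did not overlap. At 4w replicate 2, with more ImpL2, had more en and also the higher sum of EC markers (2219 against 755 cRPKM). At 1w replicate 2 had less ImpL2 but the higher sum of terminal filament and cap cell markers (317 against 249 cRPKM). The mean was 376 ± 169 cRPKM at 4w and 68.9 ± 20.3 cRPKM at 1w (SD, n = 2 each), and the log2 fold change was 2.15 ± 0.48 (SE; adjusted p = 0.0918). Of 9249 genes tested in this comparison 5.18% were called, and ImpL2 was 1 of the 7 members called.

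In ECs the values of ImpL2 ran the other way. They were 57.8 and 84.9 cRPKM at 4w, against 106 and 180.04 cRPKM at 1w, so that the ages did not overlap here either. The log2 fold change was -0.96 ± 0.37, which did not pass the test (adjusted p = 0.82). The difference between the 2 ageing effects, TFCs-CpCs minus ECs, was 3.13 ± 0.65 on the log2 scale and was called (adjusted p = 0.0457). Of 11452 genes in this interaction test 2.47% were called, and ImpL2 was the only member among them.

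At 4w the ImpL2 levels of TFCs-CpCs stood above those of ECs, with a log2 fold change of 2.5 ± 0.47 (adjusted p = 0.0502). At this age 6.12% of 9908 genes tested were called, and ImpL2 was 1 of the 7 members. At 1w the order in cRPKM was the opposite in every library. Summed over all genes, cRPKM was also lower in TFCs-CpCs at 1w (638842 and 645232) than in ECs (970316 and 1021543). The log2 fold change of ImpL2 for TFCs-CpCs over ECs, -0.70 ± 0.40, did not pass the test (adjusted p = 0.264). It was called in 2 of 9 alternative analyses of all libraries. The lowest ImpL2 levels of the study were those of the RNAi experiment, at 21.1 and 15.0 cRPKM in Smu1 RNAi ECs and at 20.5 and 29.4 cRPKM in control ECs. These overlapped, and their log2 fold change was -0.43 ± 0.21 (adjusted p = 0.495).

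Several measured facts stand beside the ImpL2 result. At 4w relative to 1w in TFCs-CpCs, the muscle markers had a median log2 fold change of -5.67, while en had 3.15 ± 0.71 (adjusted p = 0.097) and its neighbour inv, also a marker of these cells, 2.36 ± 0.61 (adjusted p = 0.128). Of the 9 follicle cell and yolk protein genes, psd, a vitelline membrane gene, was called higher at 4w (3.71 ± 0.63, adjusted p = 0.0437). The eggshell genes Vm34Ca and Vm26Aa had 2.89 ± 0.83 and 2.82 ± 0.76 (adjusted p = 0.161 and 0.143), and the 3 yolk protein genes 1.12 to 1.71, whereas cas, Fas3 and eya had -2.17, -0.67 and -0.49. The sum of the hemocyte markers was 4.77 to 52.2 cRPKM at 4w and 291 to 305 cRPKM at 1w, and that of the fat body markers 145 to 245 cRPKM at 4w and 88.2 to 121 cRPKM at 1w. The part of the cell makeup in the ImpL2 difference, or in those of chico and foxo with age in these cells, was not tested. The ImpL2 call in TFCs-CpCs with age was lost without 1w replicate 1 (log2 fold change 2.56) and without 1w replicate 2 (1.82). The call over ECs at 4w was lost without EC 4w replicate 1 (2.23) or 2 (2.76). These fits leave 1 library in a group and called fewer genes over the whole table than the main fits. A lost call there therefore does not show that ImpL2 in particular rests on that library. The interaction call was lost without EC 1w replicate 2 (adjusted p = 0.176), EC 4w replicate 1 (0.204) or 2 (0.118), or TFCs-CpCs 1w replicate 2 (0.131), with log2 values of 2.58 to 3.56 over the 8 libraries left out in turn. In the annotation 61.9% of the exon bases of ImpL2 are shared on the same strand with CG46460. Reads of the shared bases cannot be assigned to 1 of the 2 genes by position, and how they were counted is not known here.

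**Figure D2:**
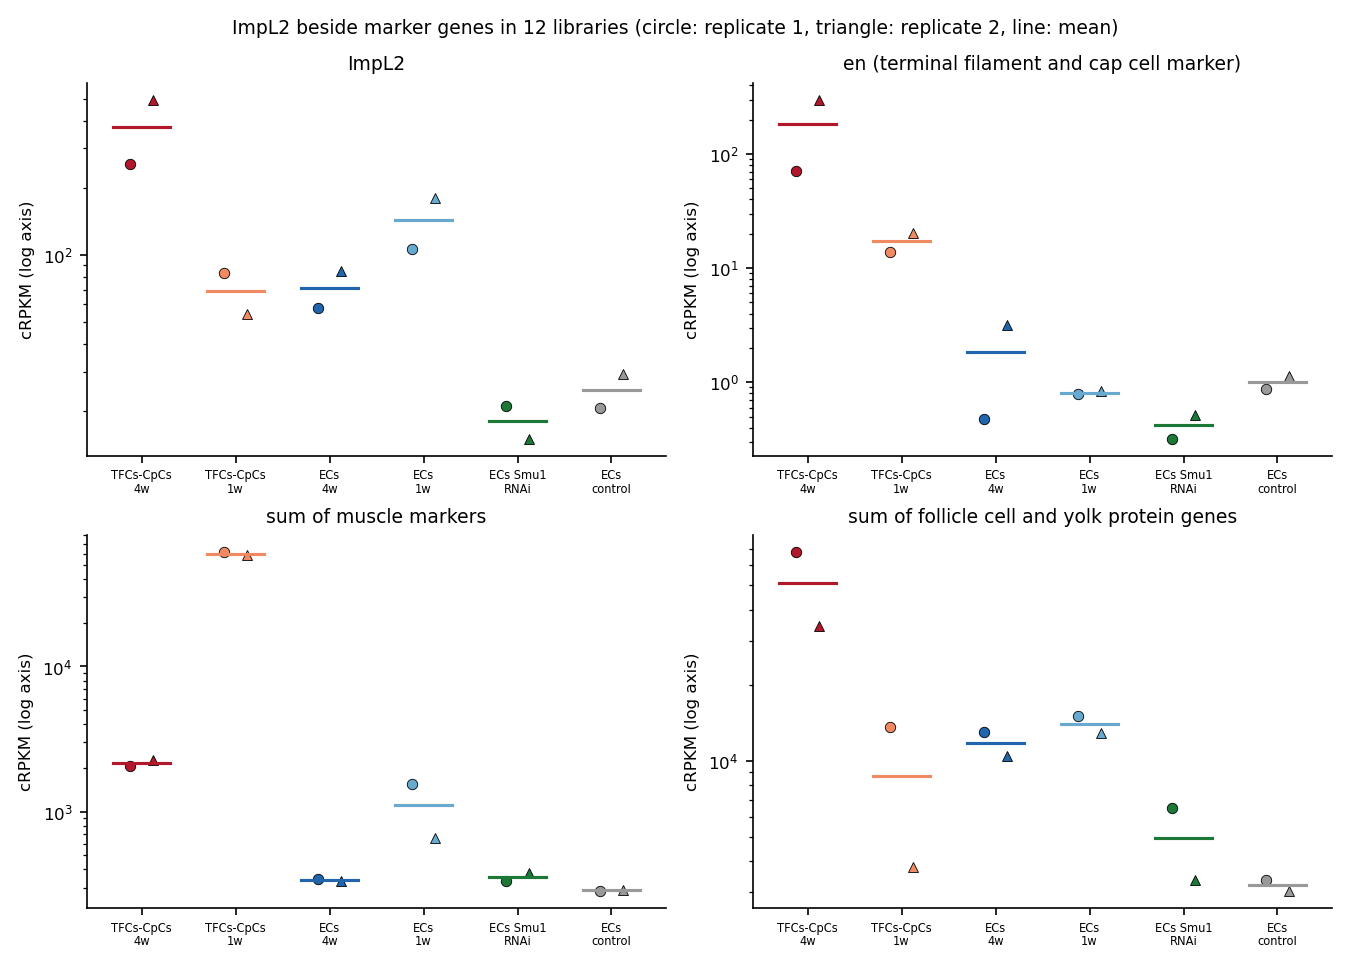
ImpL2, the terminal filament and cap cell marker en, the sum of 16 muscle markers and the sum of 9 follicle cell and yolk protein genes in each library (cRPKM, log axes). In TFCs-CpCs, ImpL2, en and the follicle sum are higher at 4w than at 1w, and the muscle sum is lower, 2078 to 2270 cRPKM against 58342 to 61296 cRPKM.

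ImpL2 also covered the widest range of the 7 members, with a ratio of 33.0 between its highest and lowest library, against 2.21 for chico and 7.83 for Thor. Its highest library was of the ageing series and its lowest of the RNAi experiment. In TFCs-CpCs at 4w its mean ranked at percentile 98.1 of all genes, compared with 89.9 in TFCs-CpCs at 1w and 67.7 in Smu1 RNAi ECs. The order of its group means was TFCs-CpCs 4w, ECs 1w, ECs 4w, TFCs-CpCs 1w, control ECs and Smu1 RNAi ECs. ECs 4w and TFCs-CpCs 1w overlapped, as did the 2 groups of the RNAi experiment, and the other neighbours did not. The genes whose log2(cRPKM + 1) followed ImpL2 most closely over the 12 libraries, among the 6006 genes that averaged 10 cRPKM or more, were Spn42Da (Pearson r = 0.967), CG2765 (0.956) and Rab6 (0.948). Spn42Da encodes a serine protease inhibitor and averaged 52.3 cRPKM in TFCs-CpCs at 4w and 16.9 cRPKM at 1w. These correlations describe libraries that share their group, and genes chosen as the closest of many.

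chico (FBgn0024248; 2L, 10242512 to 10247078, minus strand), the insulin receptor substrate, had 29.1 and 24.1 cRPKM in TFCs-CpCs at 4w, against 53.1 and 41.9 cRPKM at 1w. The ages did not overlap, and the log2 fold change was -1.10 ± 0.37 (adjusted p = 0.207). It was called with DESeq2 (-1.06, adjusted p = 0.0606) and with all 12 libraries in one edgeR fit (-1.07, adjusted p = 0.0675), and in no other alternative. In ECs chico had 29.2 and 47.8 cRPKM at 4w, against 34.8 and 50.6 cRPKM at 1w, which overlapped. Its ageing effects differed by -0.99 ± 0.57 on the log2 scale (adjusted p = 0.484), so a difference between the cell groups was not shown. In Smu1 RNAi ECs it had 34.8 and 30.7 cRPKM, against 27.7 and 32.4 cRPKM in control ECs. An antisense RNA covers 10.6% of the exon bases of chico, and whether counting used the strand is not stated.

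foxo (FBgn0038197; 3R, 14056945 to 14087978, plus strand) encodes the transcription factor that insulin signalling restrains. It had 17.4 and 23.4 cRPKM in TFCs-CpCs at 4w, against 44.7 and 41.2 cRPKM at 1w, and the ages did not overlap. The log2 fold change was -1.35 ± 0.34 (adjusted p = 0.125). With DESeq2's Wald test it was -1.30 with an adjusted p of 0.00857, and foxo then passed both thresholds. It also passed without 4w replicate 1 (-1.11) or 4w replicate 2 (-1.48), fits that called more genes over the whole table than the main fit. A call gained there therefore does not speak for foxo in particular. At 4w the TFCs-CpCs values lay below those of ECs, which were 45.4 and 64.4 cRPKM, with a log2 fold change of -1.32 ± 0.39 (adjusted p = 0.126; 0.0189 with DESeq2). In 1w ECs foxo had 43.0 and 54.0 cRPKM, which overlapped the EC values at 4w and also the values of TFCs-CpCs at 1w. The difference between the ageing effects was -1.57 ± 0.50 (adjusted p = 0.185), and it passed only with DESeq2 (adjusted p = 0.0936) and with all 12 libraries in one fit (0.0562). In Smu1 RNAi ECs foxo had 29.9 and 23.8 cRPKM, against 34.7 and 32.8 cRPKM in control ECs, with no overlap and a log2 fold change of -0.29 ± 0.12 (adjusted p = 0.374).

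Tsc1 (FBgn0026317; 3R, 24130307 to 24134654, plus strand) and gig (FBgn0005198; 3L, 20129181 to 20139010, plus strand) encode the 2 partners of the complex that restrains Tor. In ECs, Tsc1 had 21.3 and 17.4 cRPKM at 4w, against 5.75 and 10.3 cRPKM at 1w. All 4w values were above those at 1w, and the log2 fold change was 1.31 ± 0.45, but the adjusted p was 0.748. Only 0.103% of 10675 genes were called in this comparison, 570 had an unadjusted p under 0.05, and none of the 7 members was called by edgeR or by DESeq2. Tsc1 spanned 8.08 and 23.8 cRPKM in TFCs-CpCs at 4w, against 5.51 and 11.0 cRPKM at 1w, an overlap. Its partner gig spanned 5.38 and 16.9 cRPKM in TFCs-CpCs at 4w, against 9.01 and 10.2 cRPKM at 1w. In both genes replicate 2 at 4w was the highest library of all 12. In ECs gig had 8.95 and 5.43 cRPKM at 4w, against 9.28 and 9.30 cRPKM at 1w, a log2 fold change of -0.29 ± 0.45 (adjusted p = 0.999), so the 2 partners did not show a common direction in ECs.

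Tor (FBgn0021796; 2L, 13004480 to 13013197, plus strand), the kinase of both TOR complexes, had the lowest mean of the members in 4 of the 6 groups, and gig in the other two. It had 4.36 and 7.58 cRPKM in TFCs-CpCs at 4w, against 3.18 and 3.82 cRPKM at 1w. In ECs it had 8.03 and 8.69 cRPKM at 4w, against 7.88 and 4.24 cRPKM at 1w. The 4w values were the higher ones in both cell groups, but the log2 fold changes of 0.50 ± 0.42 and 0.57 ± 0.42 had adjusted p-values of 0.691 and 0.999. Its mean ranked between percentiles 49.8 and 58.9 of all genes.

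Thor (FBgn0261560; 2L, 3478434 to 3479612, plus strand), the 4E-BP that blocks cap-dependent translation until Tor phosphorylates it, was among the most abundant transcripts, at percentiles 98.8 to 99.5 in the 6 groups. In TFCs-CpCs it had 973 and 327 cRPKM at 4w, against 803 and 685 cRPKM at 1w. In ECs it had 2558 and 1743 cRPKM at 4w, against 1671 and 2062 cRPKM at 1w. Both cell groups overlapped between ages, with log2 fold changes of -0.44 ± 0.59 in TFCs-CpCs and 0.27 ± 0.29 in ECs (adjusted p = 0.842 and 0.999).

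Every TFCs-CpCs library held less Thor than every EC library of the same age. Of all genes tested, 67.6% did not overlap between the cell groups at 1w and 56.2% at 4w. Summed over all genes, cRPKM was also lower in TFCs-CpCs (580590 to 797409) than in ECs of these ages (894149 to 1021543). At 1w the log2 fold change of TFCs-CpCs over ECs was -0.96 ± 0.27, with an adjusted p of 0.0508 that passed and a size just under 2-fold that did not. It was called in 5 of 9 alternative analyses of all libraries, among them median-of-ratios size factors (-1.01, adjusted p = 0.0449). With 1 library left out it was called in 1 of 4 fits, that without EC 1w replicate 1 (-1.22). At this age 31.2% of 10173 genes tested were called, against none of the 7 members. At 4w the log2 fold change was -1.59 ± 0.61 (adjusted p = 0.193; 0.028 with DESeq2). Without TFCs-CpCs 4w replicate 1, the library with 973 cRPKM, it was -2.65, and the age difference in TFCs-CpCs was then -1.42. Both were called, in fits that called more genes over the whole table than the main fits. These calls therefore do not speak for Thor in particular. The closest patterns to that of Thor over the 12 libraries were those of CG32425 (Pearson r = 0.915), Mapmodulin (0.897) and HipHop (0.893).

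Smu1 RNAi left the members near their control values. The 7 log2 fold changes lay between -0.43 (ImpL2) and 0.16 (chico), with standard errors of 0.10 to 0.28. None was called by edgeR or by DESeq2, against 1.11% of 9933 genes tested by edgeR, and 1 member, foxo, had an unadjusted p under 0.05. Thor had 1477 and 695 cRPKM in Smu1 RNAi ECs, against 1350 and 908 cRPKM in control ECs. Tor had 11.1 and 10.1 cRPKM, against 9.80 and 10.3 cRPKM in control ECs.

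**Figure D3:**
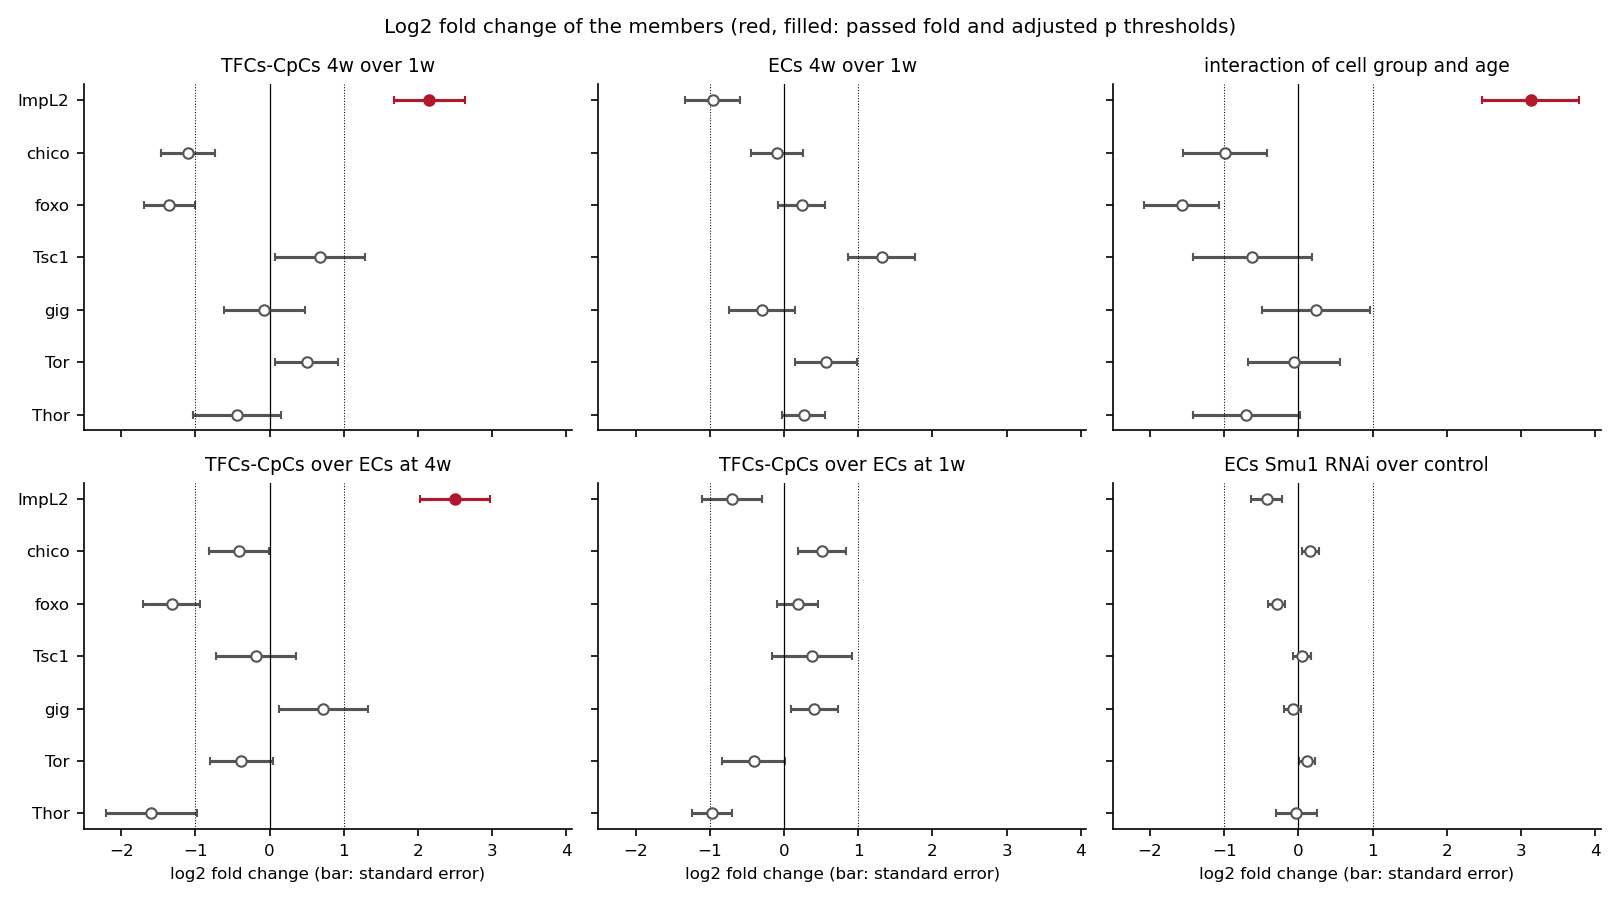
Log2 fold change of the 7 members (x axis; bars are standard errors of the edgeR fit) in the 6 comparisons; dotted lines mark 2-fold, and filled red points passed both thresholds. ImpL2 is the only filled point, at 2.15, 3.13 and 2.5, and the bars are narrowest for Smu1 RNAi over control.

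Over the members as a list, 3 of 7 log2 fold changes were above 0 in TFCs-CpCs with age, with a median of -0.07, against a median of 0.04 over all genes tested. In ECs 4 of 7 were above 0, with a median of 0.24, against -0.03 over all genes. The 7 genes thus had no shared direction with age in either cell group. Groups that did not overlap were common in general. In TFCs-CpCs with age they were 4 of the 7 members and 49.8% of all genes tested, and in ECs 4 of the 7 members and 34.9%. Between the cell groups at 1w, 3 of the 7 members lay lower in TFCs-CpCs, and 67.6% of all genes did not overlap. At 4w 1 member lay higher and 4 lower, and the share of all genes was 56.2%. Under Smu1 RNAi 2 members lay lower, and the share was 41.1%.

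With age in TFCs-CpCs 2 of 46 other genes of the pathway were called (4.35%, against 5.18% of all genes tested), 1 in each direction, and their median log2 fold change was -0.07. Sdr, a secreted decoy of the insulin receptor, rose to 10.2 and 12.9 cRPKM at 4w, against 2.29 and 2.14 cRPKM at 1w, a log2 fold change of 2.11 ± 0.47 (adjusted p = 0.097). The gene alc, which encodes the regulatory beta subunit of the energy sensor AMPK, fell to 89.1 and 82.6 cRPKM at 4w, against 311 and 203 cRPKM at 1w (log2 fold change -1.86 ± 0.40, adjusted p = 0.0865). Both calls were lost without 1w replicate 1 or 1w replicate 2, fits that called fewer genes over the whole table as well. That of Sdr was also lost without 4w replicate 2. In the same comparison the muscle markers had a median log2 fold change of -5.67. The part of the cell makeup in these differences, and in those of the other pathway genes with age in these cells, was not tested.

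Of the 8 insulin-like peptide genes listed, Ilp1 to Ilp5 stayed at or under 1.73 cRPKM in every library, and Ilp7 at or under 5.37 cRPKM. Ilp8 spanned 2.18 to 217.68 cRPKM in TFCs-CpCs at 4w, against 2.49 to 7.01 cRPKM at 1w, an overlap. Its log2 fold change of 4.29 ± 1.89 rested on 1 of the 4w libraries and did not pass the test (adjusted p = 0.330). Ilp6, the peptide that fat body and glia are known to secrete, had 23.7 and 18.1 cRPKM in TFCs-CpCs at 4w, against 4.47 and 3.73 cRPKM at 1w. The log2 fold change of 2.09 ± 0.49 missed the threshold (adjusted p = 0.109), and it passed in 6 of 9 alternative analyses of all libraries and in 1 of the 4 with a library left out (adjusted p up to 0.368). The pleckstrin homology protein gene melt, known to modify Foxo and Tor signalling, had 12.6 and 17.0 cRPKM in TFCs-CpCs at 4w, against 4.64 and 4.16 cRPKM at 1w (log2 fold change 1.48 ± 0.40, adjusted p = 0.142). In the same cells Sesn, the Sestrin that restrains Tor, had 57.3 and 62.7 cRPKM at 4w, against 104 and 99.6 cRPKM at 1w (-1.03 ± 0.32, adjusted p = 0.188), and the Rag GTPase gene RagC-D had 84.7 and 55.5 cRPKM at 4w, against 112 and 94.3 cRPKM at 1w (-0.82 ± 0.40, adjusted p = 0.383). Of the exon bases of Sesn, 65.1% are shared on the same strand with CG46429.

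None of 46 pathway genes was called with age in ECs by edgeR or by DESeq2, although 2 had an unadjusted p under 0.05, and the median log2 fold change was 0.13. Among genes whose higher group averaged 10 cRPKM or more, the largest differences without overlap were those of Nprl2 and Wdr24, subunits of the GATOR complexes that carry the amino acid signal to Tor. Nprl2 had 29.8 and 25.1 cRPKM at 4w, against 17.9 and 3.10 cRPKM at 1w (log2 fold change 1.53 ± 0.66, adjusted p = 0.874). For Wdr24 the values were 10.7 and 12.5 cRPKM at 4w, against 4.09 and 5.82 cRPKM at 1w (1.28 ± 0.61, adjusted p = 0.927). Nup44A, another GATOR gene, had 0.91 ± 0.48 (adjusted p = 0.981). On the lower side were Sin1 of TOR complex 2 (-0.79 ± 0.67), Akt (-0.55 ± 0.45) and the adaptor gene Lnk (-0.22 ± 0.31), each with an adjusted p of 0.999. In the interaction test, where 2.47% of all genes were called, 0 of 48 pathway genes were called by edgeR, while 1 was called by DESeq2.

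Between the cell groups at 1w, 15 of 46 pathway genes were called, 11 of them higher and 4 lower in TFCs-CpCs. That share, 32.6%, was close to the 31.2% of all genes called at this age. The median log2 fold change of these genes was 0.48, against -0.19 over all genes. The kinase gene Akt had 36.9 and 41.9 cRPKM in TFCs-CpCs at 1w, against 19.4 and 11.6 cRPKM in ECs (log2 fold change 1.73 ± 0.32, adjusted p = 0.0142). Pdk1, whose product phosphorylates Akt, was higher by 1.39 ± 0.32, and the PI3-kinase adaptor gene Pi3K21B by 1.18 ± 0.30. All 3 AMPK subunit genes were higher in TFCs-CpCs at 1w, AMPKalpha by 1.94 ± 0.36, SNF4Agamma by 1.70 ± 0.36 and alc by 1.38 ± 0.30. The same libraries held the muscle markers at a median log2 fold change of 6.86 over ECs, and the part of muscle RNA in these differences was not tested.

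Further genes called higher in TFCs-CpCs at 1w were RagC-D (1.71 ± 0.29), the GATOR gene Wdr59 (2.04 ± 0.46), the amino acid transporter gene mnd (2.82 ± 0.75), Tif-IA of ribosomal RNA synthesis (1.35 ± 0.27) and Sdr (3.91 ± 1.35, adjusted p = 0.0821). Called lower were Ilp6 (-2.63 ± 0.47), Ilp8 (-2.94 ± 0.83), the ribosomal protein gene RpS6 (-1.14 ± 0.24) and REPTOR-BP (-1.19 ± 0.26), a partner of the transcription factor that acts when Tor is low. Ilp6 had 4.47 and 3.73 cRPKM in TFCs-CpCs, against 25.9 and 39.3 cRPKM in ECs, and RpS6 had 543 and 652 cRPKM, against 1686 and 1705 cRPKM in ECs. The relaxin-like peptide gene Ilp8 had 7.01 and 2.49 cRPKM in TFCs-CpCs, against 25.0 and 68.3 cRPKM in ECs (adjusted p = 0.0518). Of these 15 calls, 9 were kept with each of the 4 libraries left out in turn. Without EC 1w replicate 2 the calls of Ilp8 (adjusted p = 0.289), Pi3K21B (0.128), Sdr (0.24) and mnd (0.108) were lost. Without TFCs-CpCs 1w replicate 1 those of Pi3K21B (0.126), RpS6 (0.123) and Sdr (0.122) were lost, and without replicate 2 those of Ilp8 (0.122), REPTOR-BP (0.117) and mnd (0.166).

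At 4w, 3 of 46 pathway genes were called between the cell groups (6.52%, against 6.12% of all genes tested), all higher in TFCs-CpCs, and the median log2 fold change was 0.12, against -0.03 over all genes. Akt had 31.6 and 84.3 cRPKM in TFCs-CpCs, against 10.5 and 9.16 cRPKM in ECs (2.66 ± 0.53, adjusted p = 0.0574). The amino acid transporter gene path had 402 and 464 cRPKM in TFCs-CpCs, against 116 and 128 cRPKM in ECs (1.94 ± 0.39, adjusted p = 0.0574). The AMPK gamma subunit gene SNF4Agamma had 62.6 and 98.3 cRPKM in TFCs-CpCs, against 15.6 and 30.2 cRPKM in ECs (1.92 ± 0.47, adjusted p = 0.0913). The muscle markers had a median log2 fold change of 3.24 over ECs at this age, and their part in these differences was not tested. None of the 3 was called without EC 4w replicate 1 or without EC 4w replicate 2, fits that called fewer genes over the whole table as well.

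Other pathway genes at 4w were apart without being called. The transporter gene mnd had 8.63 and 83.7 cRPKM in TFCs-CpCs, against 1.62 and 4.46 cRPKM in ECs (4.01 ± 1.08, adjusted p = 0.110), and rested mostly on replicate 2. Sdr had 2.76 ± 0.95 (adjusted p = 0.159). REPTOR-BP had 224 and 206 cRPKM in TFCs-CpCs, against 523 and 372 cRPKM in ECs (-0.94 ± 0.38, adjusted p = 0.212). The log2 fold changes of Lamtor1, part of the lysosomal anchor of Tor, and of Nprl3 were -0.95 ± 0.49 and -1.20 ± 0.69 (adjusted p = 0.310 and 0.366).

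In Smu1 RNAi ECs 1 of 47 pathway genes was called (2.13%, against 1.11% of all genes tested). Ilp8 rose to 108 and 85.3 cRPKM, against 41.7 and 26.7 cRPKM in control ECs, a log2 fold change of 1.53 ± 0.20 (adjusted p = 0.00161). Ilp8 is known as the peptide that damaged larval discs release to delay maturation, whereas the cells here are adult. The sum of follicle cell and yolk protein genes was 6473 and 3354 cRPKM in Smu1 RNAi ECs, against 3352 and 3035 cRPKM in control ECs. Its part in the Ilp8 difference was not tested. The Ilp8 call was kept without each of the 4 libraries in turn (log2 fold changes of 1.22 to 1.91). It was lost with all 12 libraries in one fit, where only 1 gene of the whole table was called. Ilp7, an insulin-like peptide gene singled out after its values were seen, had 2.99 and 5.37 cRPKM in Smu1 RNAi ECs, against 1.26 and 0.84 cRPKM in control ECs, without overlap (log2 fold change 2.01 ± 0.56, adjusted p = 0.125). Among genes averaging 10 cRPKM or more, the largest other differences without overlap were AMPKalpha 0.27 ± 0.11, RagC-D 0.28 ± 0.11, Pdk1 -0.32 ± 0.18, Nprl2 -0.20 ± 0.14 and alc -0.19 ± 0.11 on the log2 scale, none with an adjusted p under 0.346.

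**Figure D4:**
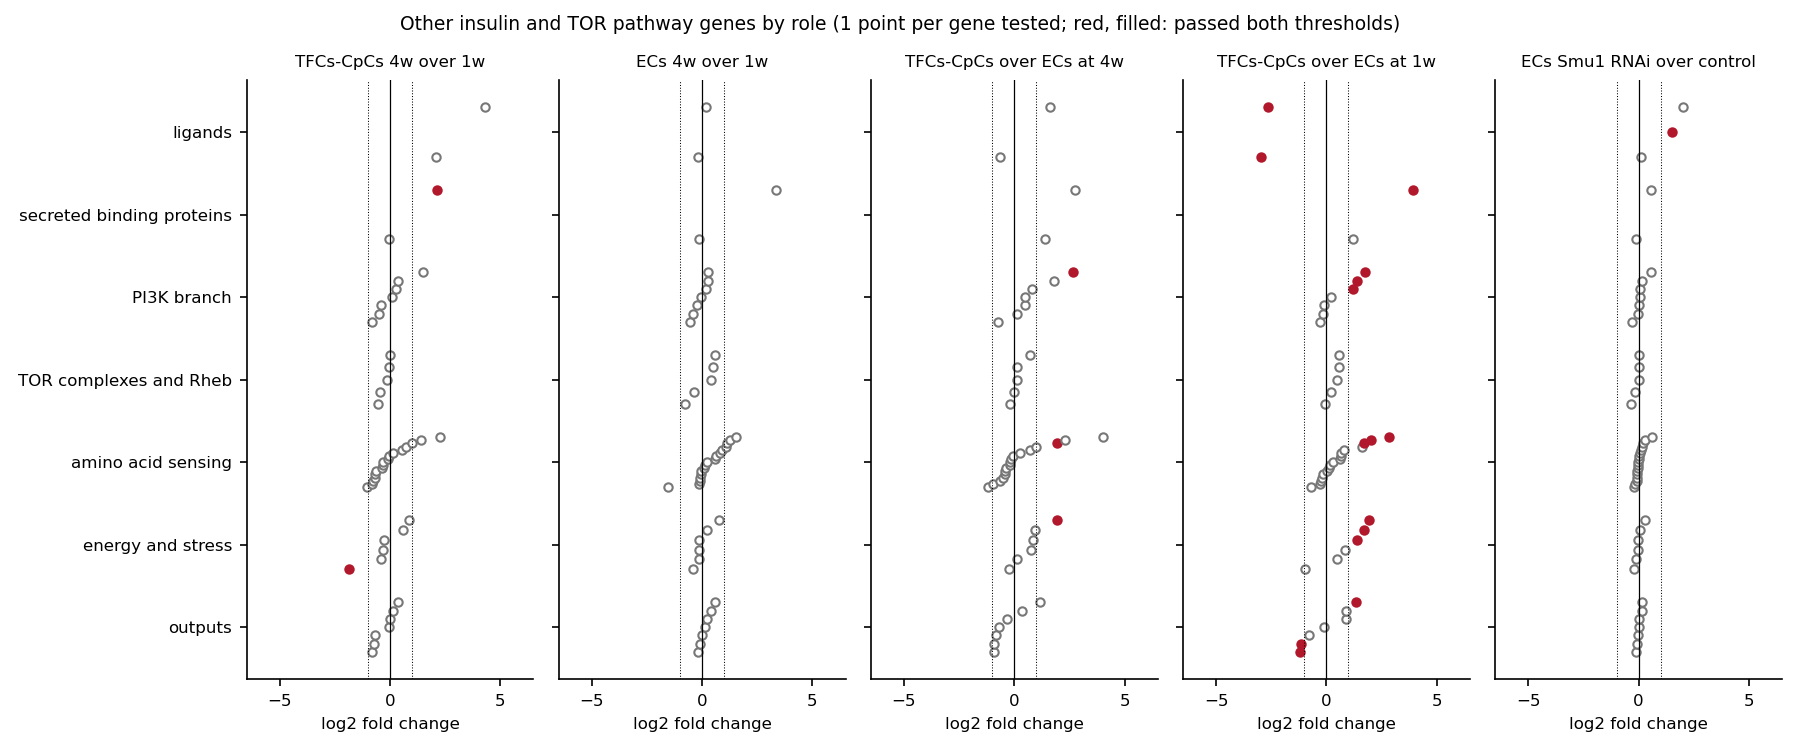
Log2 fold change (x axis) of each other insulin and TOR pathway gene tested, by role (y axis), in 5 comparisons; dotted lines mark 2-fold, and filled red points passed both thresholds. There are 2 filled points for age in TFCs-CpCs, 0 for age in ECs, 3 and 15 for TFCs-CpCs over ECs at 4w and 1w, and 1 for Smu1 RNAi.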

How the data were processed

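The data were 12 RNA-seq libraries of sorted Drosophila ovarian cells, 2 in each of 6 groups taken from the sample labels. The authors aligned and counted reads with vast-tools on dm6 and deposited 2 values for each gene: unnormalized read counts, and RPKM corrected for mappability (cRPKM). Of 14489 genes listed, 763 had no value. Whether counting used the strand is not given in the sources used here.

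The counts were tested with edgeR 4.0.16 in R 4.3.3 (TMM, estimated dispersions, quasi-likelihood test) on genes that reached 10 counts in 2 or more of the libraries fitted, each comparison on its own 4 libraries and the interaction on 8. Standard errors are the absolute log2 fold change divided by the square root of F. The alternatives were DESeq2 1.42.0, median-of-ratios size factors, no filter on low counts, an adjusted p under 0.05, no fold threshold, all 12 libraries in one fit, a block for the replicate number, limma 3.58.1 on log2(cRPKM + 1) and log2(cRPKM + 0.1), and leaving out each library. The fits were tested on simulated data. Python 3.11.15, pandas 2.3.3, numpy 2.4.6 and matplotlib 3.10.9 were used for levels and figures.

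The members and the gene lists were chosen with earlier results of these data known. The genes named are all members, every other pathway gene called, and in each comparison between groups up to 3 pathway genes in each direction with the largest log2 fold change among those without overlap whose higher group averaged 10 cRPKM or more. Tor, which the name table calls mTor, was matched through a RefSeq synonym. Gene positions come from the BDGP6 annotation. Per the paper, 1 batch of females was split over the 2 ages in each replicate. The numbers of the EC libraries match in all sources and pair the ages, whereas those of TFCs-CpCs differ between sources, so that their pairs are not known. The main test of ECs with age, and the statements on overlap, did not use the pairs. The block by replicate number did, and called 0 members with age in ECs. Deviations of same-numbered libraries from the means of their groups correlated across genes at -0.035 for TFCs-CpCs, 0.062 for ECs and 0.231 for the RNAi experiment. In TFCs-CpCs the germline markers summed to 51.5 to 124 cRPKM at 4w and 103 to 306 cRPKM at 1w, and the neuron markers to 7.34 to 13.0 cRPKM at 4w and 13.9 to 16.2 cRPKM at 1w.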

Additional observations from a re-analysis of the deposited data

Results flagged for a closer look

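ImpL2 was the only member or pathway gene whose ageing effect differed between the cell groups by the test of the difference itself. The effect in TFCs-CpCs minus that in ECs was 3.13 on the log2 scale (edgeR's quasi-likelihood test, adjusted p = 0.0457), with both TFCs-CpCs libraries higher at 4w and both EC libraries lower at 4w than at 1w. The sum of muscle markers, the sum of follicle cell and yolk protein genes, and en moved with age in the same TFCs-CpCs libraries, and their part in the difference was not tested. Groups held 2 libraries each, so no library could be set apart from the others of its group.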

How the results depend on the processing

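The number of members called in TFCs-CpCs with age, 1 in the main analysis, was 3 with DESeq2, 2 with no filter, 0 at an adjusted p under 0.05, 3 with all 12 libraries in one fit, and 0 to 3 with 1 library left out. For TFCs-CpCs over ECs at 4w it was 3 with DESeq2, 0 at an adjusted p under 0.05, 3 with all 12 libraries, 2 with limma on log2(cRPKM + 0.1) and 0 to 3 with 1 library left out. At 1w it was 0 in the main analysis, 1 with DESeq2, 1 with median-of-ratios size factors, 1 with no fold threshold, 2 with either limma fit and 0 to 1 with 1 library left out. For the interaction it was 2 with DESeq2, 2 with all 12 libraries and 0 to 1 with 1 library left out. With age in ECs and under Smu1 RNAi it was 0 in all 9 alternatives over all libraries. The counts over all genes changed too. With age in TFCs-CpCs they were 479 in the main analysis, 1423 with DESeq2, 1206 with no filter and 1665 with all 12 libraries. For TFCs-CpCs over ECs at 4w the main analysis called 606 genes, DESeq2 1905 and the fit of all 12 libraries 2608. For the interaction these counts were 283, 917 and 931. A changed count of members, or of the other pathway genes below, therefore does not show a change particular to them.

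For the other pathway genes called, the count with age in TFCs-CpCs was 6 with DESeq2, 6 with no filter, 0 at an adjusted p under 0.05, 6 with all 12 libraries, 1 with the replicate block and 0 to 7 with 1 library left out. Under Smu1 RNAi it was 2 with DESeq2, no filter, the replicate block or either limma fit, the second gene being Ilp7, 0 with all 12 libraries and 1 to 2 with 1 library left out. For TFCs-CpCs over ECs it was at 4w 7 with DESeq2, 7 with no filter, 0 at an adjusted p under 0.05, 9 with all 12 libraries, 5 with the replicate block and 0 to 10 with 1 library left out, and at 1w 12 to 16 with 1 library left out. For the interaction it was 1 with DESeq2, 1 with no filter, 2 with all 12 libraries and 0 to 1 with 1 library left out.

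The block by replicate number left each count of members called as it was, and Sdr in TFCs-CpCs with age lost its call (adjusted p = 0.132); Sdr was called in 4 of the 9 alternatives over all libraries (adjusted p up to 0.148). With 1 library left out, the lone library of a group was assumed to vary like the others. Among the fits of all libraries, signs turned for small differences: foxo at 1w was -0.16 and -0.17 in the limma fits, gig in TFCs-CpCs with age 0.01 with limma on log2(cRPKM + 1), Thor under Smu1 RNAi 0.00 with all 12 libraries, and the interaction of Tor 0.04, 0.04, 0.14 and 0.18 with DESeq2, median-of-ratios size factors and the 2 limma fits. With 1 library left out, signs also turned within these ranges: with age in TFCs-CpCs, Thor -1.42 to 0.21, Tsc1 -0.19 to 1.31 and gig -1.0 to 0.59; with age in ECs, Thor -0.06 to 0.53, chico -0.50 to 0.31, foxo -0.04 to 0.51 and gig -0.72 to 0.01; under Smu1 RNAi, Thor -0.65 to 0.40 and Tsc1 -0.04 to 0.13. For TFCs-CpCs over ECs the ranges were -1.08 to 0.37 (Tsc1) and -0.24 to 1.30 (gig) at 4w, and -0.08 to 0.87 (Tsc1) and -0.08 to 0.38 (foxo) at 1w, and for the interaction -0.42 to 0.28 (Tor) and -0.67 to 0.84 (gig). The cause was not tested.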
